A study of Rattus norvegicus with 9 samples.

Results

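Pleiotrophin is a secreted growth factor that binds heparin. It had been purified from the medium of a cultured metanephric mesenchyme cell line, and this comparison sets rat ureteric buds grown with the purified protein (PTN, 3 arrays) against buds grown with that whole conditioned medium (BSN, 3 arrays). The members are these 6 arrays of the 9 in the series, over the 15866 probe sets of the rat array that are not array controls. Buds came from Sprague-Dawley embryos at embryonic day 13, grew for 4 days in a gel made in equal parts of growth factor reduced Matrigel and of collagen type 1, and 3 buds gave the RNA of 1 sample. Every culture held FGF1 at 250 ng/ml and GDNF at 125 ng/ml. To these the BSN cultures added BSN-CM, the conditioned medium, and the PTN cultures added approximately 3 µg/ml of pleiotrophin purified from BSN-CM. The remaining 3 arrays (HRG) came from buds given human recombinant heregulin alpha at 500 ng/ml in place of either, and their values are printed beside a few genes.

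The question is what the purified factor leaves out, and what it adds, relative to the medium it came from. No group had FGF1 and GDNF alone, and the amount of pleiotrophin in the conditioned medium is not given in the sources used here. A gene that is higher in PTN than in BSN therefore cannot be told apart from a gene held down by some other part of the conditioned medium. In the same way, a gene lower in PTN may be raised by another part of the medium or lowered by pleiotrophin. These cannot be told apart either. The verbs rose and fell below mean higher or lower in PTN than in BSN. The labels disagree on the PTN cultures: the series title counts them among the branching cultures and their own sample descriptions call them non-branching. The signals hold no morphology.

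Branching of the ureteric bud, an epithelial tube, builds the collecting ducts of the kidney. GDNF drives this branching through the receptor Ret and its co-receptor Gfra1 at the bud tips, with FGF signals acting beside it. Pleiotrophin and its relative midkine bind heparan sulfate and chondroitin sulfate chains, and their known binding partners include the receptor phosphatase Ptprz1, the receptor kinase Alk, syndecans and nucleolin.

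The array signals were on a common deposited scale, and they were compared as log2 of the signal plus 16 in 1 linear model over all 9 arrays. A change counts as called when its adjusted p was under 0.05, where the adjustment runs over the 10106 probe sets kept after a filter on low signals. Fold changes and log2 changes are on this log2 scale, with the standard error (SE) of the log2 change, and signals are given in replicate order. Log2 signals correlated across probe sets at 0.970 to 0.974 within BSN, 0.946 to 0.979 within PTN and 0.917 to 0.937 between the groups. PTN replicate 1 stood apart from the other 2 PTN arrays, and without it more probe sets were called rather than fewer (1214 higher and 2008 lower). The 3'/5' ratio of the actin control, a measure of RNA integrity and of how far amplification favours 3' ends, was 28.05 to 37.82 in BSN and 15.33 to 18.1 in PTN (exact two-sided permutation p = 0.1, the smallest that 3 against 3 arrays can give). The 3' signal of the actin control was itself lower in PTN, at 6508 to 10870 against 18660 to 27020 in BSN. How far the ratio follows the actin level was not tested, so it is not read as integrity alone. The ratio of the GAPDH control overlapped between the groups, and the part of RNA quality in the results was not tested. Xist, the RNA of the inactive X chromosome of females, was at 19451, 23556 and 11727 in BSN and at 15685, 13.8 and 9071 in PTN, so the pooled buds of PTN replicate 2 differed from the other 5 samples in it. The part of sex in the results was not tested, and Xist was looked at after its values were seen. Replicates are biological according to the series' design text.

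In this fit 925 probe sets were higher in PTN (9.15% of those tested) and 1351 were lower (13.4%), and 427 of the 2276 differed 2-fold or more. On 1487 probe sets (14.7%) all PTN arrays lay above all BSN arrays, and on 2402 (23.8%) all lay below. With each gene read from its brightest kept probe set, 677 of 7458 genes rose (9.08%) and 1007 fell (13.5%), and calls in the gene lists below are read against these shares. Counts of list members at an unadjusted p under 0.05 are looser. No matching share of all genes is given for them, so they are not to be read against these shares.

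The median change of all kept probe sets was not 0 but −0.114 on the log2 scale, and the shift followed brightness. Over 5 equal bins from dim to bright, the median change was −0.246, −0.203, −0.131, −0.028 and 0.089. Calls followed it, with 44 higher and 203 lower in the dimmest bin and 398 higher and 201 lower in the brightest. Of all calls 40.6% were higher as deposited, 60.3% when each array was centred on its median (1342 higher, 884 lower), and 31.9% when centred on its brightest probe sets. Quantile normalization and cyclic loess, which remove the dependence on brightness, gave 49.7% and 50.1%. No probe set turned from a call in one direction to a call in the other under any of the 4 other scalings, and 693 higher and 789 lower calls held under all of them. Because of this, counts of members that held under all scalings stand beside the lists below. The shares of all genes on the deposited scale are no reference for those counts. Centring on the median would add 0.11 or more to each log2 change, and the median over genes was −0.113.

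**Figure D1:**
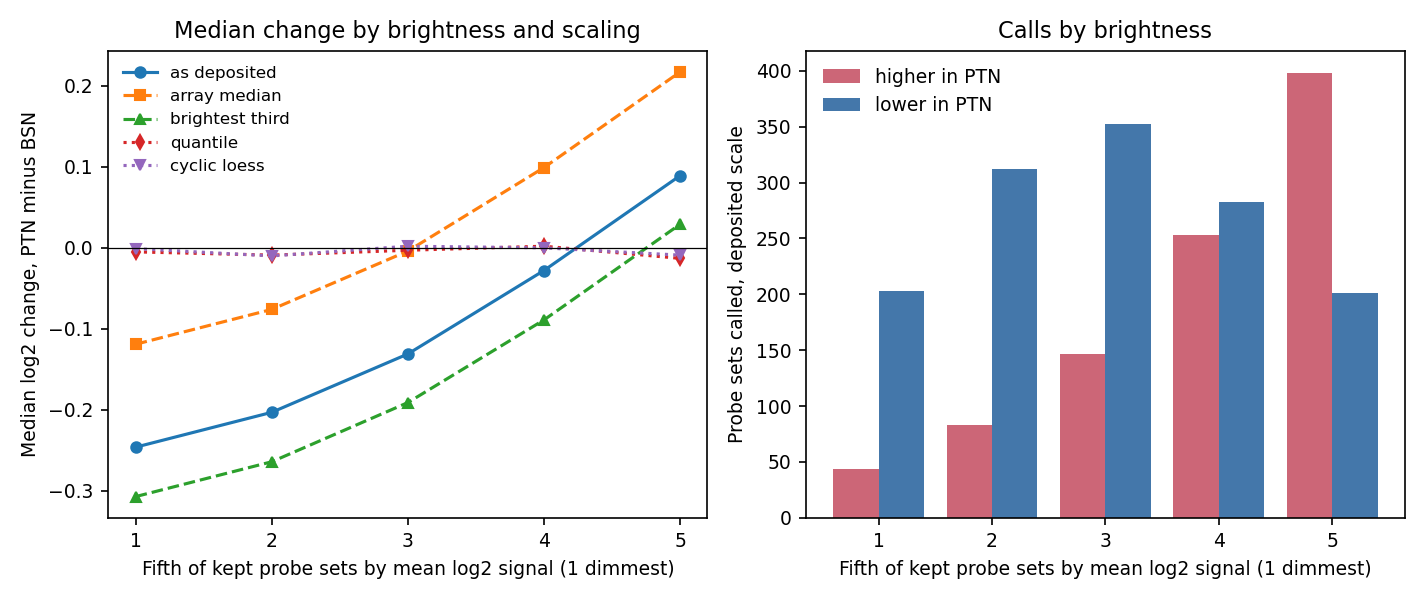
Left, the median log2 change from BSN to PTN (y axis) in each of 5 equal bins of kept probe sets by mean log2 signal (x axis, 1 is the dimmest), as deposited and under 4 other scalings. Right, the number of probe sets called in each bin on the deposited scale. As deposited the median climbed from −0.246 to 0.089, and quantile normalization and cyclic loess kept it within 0.013 of 0.

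Among probe sets above the 40th percentile in both groups, the largest called difference was the fall of Cyth3, which codes for an exchange factor for the small GTPase Arf6. Its signals were 19729, 20450.5 and 23407 in BSN and 733, 1616 and 1937.5 in PTN, a 15.8-fold fall (adjusted p = 7.58e-06). Every BSN array was far above every PTN array. Dusp2, a nuclear phosphatase that switches off MAP kinases, had 5833, 5964 and 5697 in BSN and 652, 510.0 and 507 in PTN (adjusted p = 1.31e-07). The PTN values were below the 40th percentile of their arrays, so no fold is given. Runx1, a transcription factor, fell 6.09-fold from 4955, 3979 and 5528 to 702, 808 and 807 (adjusted p = 4.42e-06). For all 3 genes the BSN arrays held the high values, and the HRG arrays, at mean signals of 2550.3 for Cyth3, 2142 for Dusp2 and 865 for Runx1, lay nearer to PTN on the log2 scale for Cyth3 and Runx1 and nearer to BSN for Dusp2.

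Among the rises, Insig1, the sterol-regulated protein that holds the SREBP escort protein in the endoplasmic reticulum, went from 4384.5, 5349.6 and 5382 in BSN to 22738, 19126 and 20485 in PTN, a 4.12-fold rise (log2 change 2.04, SE 0.17, adjusted p = 1.59e-05). Every PTN array was far above every BSN array, and the HRG mean was 7638.5. Tfrc, the transferrin receptor that brings iron into cells, rose 2.72-fold from 9796, 8852 and 8884 to 29004, 24584 and 21856 (adjusted p = 3.77e-05). A second, dimmer Tfrc probe set did not pass (mean signals 788 and 1204, adjusted p = 0.0629). Amot, a binding protein of the YAP pathway, rose 2.98-fold from 7058, 7197 and 6869.8 to 18064, 20593 and 24923 (adjusted p = 1.72e-05), and Fat4, an atypical cadherin, rose 2.73-fold from a mean of 1644 to 4512. Rnase4, a secreted ribonuclease, rose 3.41-fold with PTN signals of 12494, 8555 and 8506. The groups did not overlap for any of these 5 genes. The 15 largest rises and falls were picked on that condition, so it adds no support of its own. Over all tested probe sets 14.7% had every PTN array above every BSN array. Rpp30, a subunit of ribonuclease P, and Homer1, a scaffold protein of synapses, also rose, with BSN means of 564 and 617 that are below the 40th percentile of the BSN arrays and PTN means of 2694 and 2357. Neither of these probe sets would have passed the filter on low signals without its PTN arrays. The places of Rpp30 and of this Homer1 probe set among the rises rest on that selection. Of the other 2 Homer1 probe sets 1 rose and 1 was not called. Further large rises were those of Rassf3 (2.66-fold), Ppp2r2b (2.70-fold), Lrig1 (2.64-fold), Ptprr (2.64-fold) and Cndp1 (2.77-fold).

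**Figure D2:**
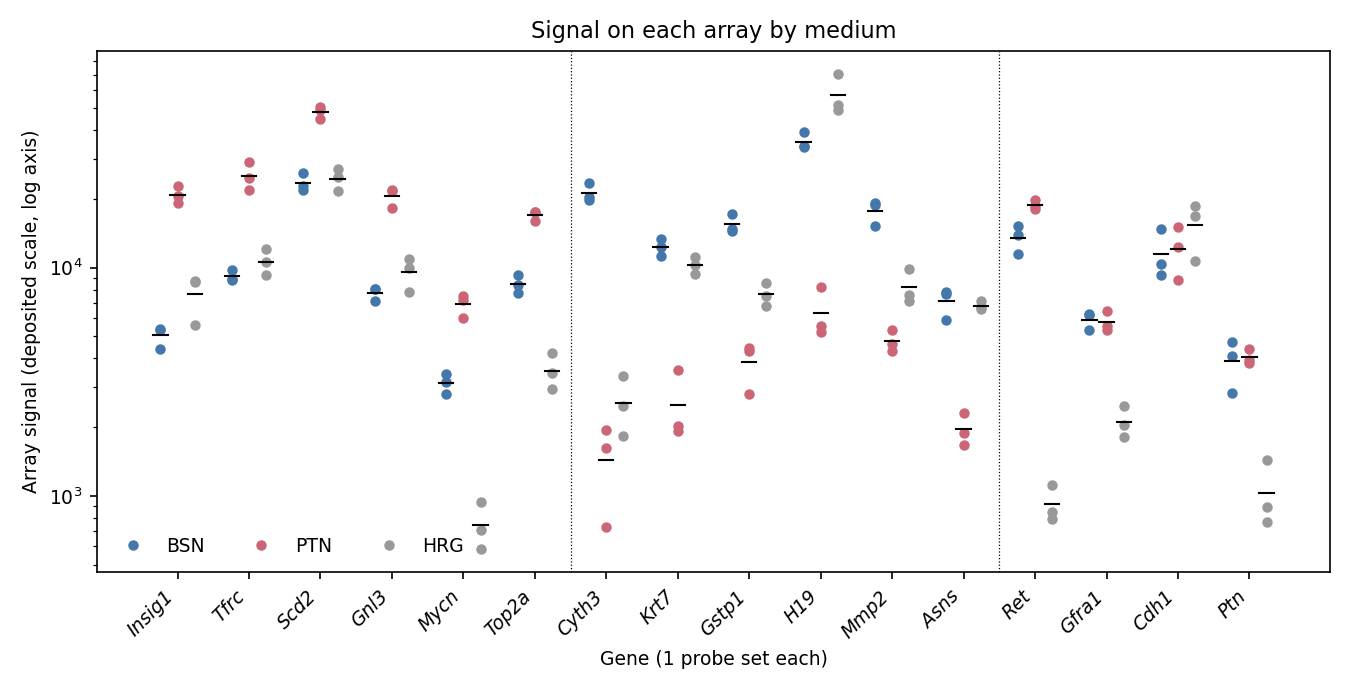
Signal on each array (y axis, log scale) for 16 genes (x axis, 1 probe set each) in BSN, PTN and HRG, 3 arrays each, with bars at the group means. The 6 genes on the left were higher and the 6 in the middle lower in PTN than BSN with no overlap of the arrays, and of the 4 on the right Ret was the only one called (1.40-fold) while Gfra1, Cdh1 and Ptn were not.

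Cholesterol synthesis was the gene list with the largest share of rises among those with at least 15 tested genes. Of its 18 tested genes 9 rose and none fell, in limma's test, with 10 higher and 0 lower at an unadjusted p under 0.05. The median log2 change of the list was 0.42, and 8 of the rises held under all other scalings. Fdps, which makes farnesyl diphosphate, rose 2.27-fold from 10483, 11684 and 11869 to 34664, 22504 and 21831 (adjusted p = 0.00067). Replicate 1 was the highest PTN array for this gene. Sqle, squalene epoxidase and a flux-controlling step of the pathway, rose 1.97-fold from 6275, 6229 and 6383 to 10892, 13514 and 13042 (adjusted p = 0.000948). Acat2, which acts at the start of the pathway, rose 1.78-fold. The later enzymes Hsd17b7 (2.21-fold), Nsdhl (2.15-fold), Msmo1 (1.93-fold), Lss (1.68-fold) and Sc5d (1.39-fold) rose as well, and dimmer probe sets of Hsd17b7 and Sc5d were not called. Cyp51 (1.41-fold, adjusted p = 0.0339) was called as deposited but not after quantile normalization, cyclic loess or centring on the brightest probe sets.

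Other members were not called. Mvk and Mvd, kinase and decarboxylase of the mevalonate steps, had log2 changes of −0.05 and 0.03, and Fdft1, squalene synthase, had 0.05. None of these 3 was called, nor was Dhcr7, with a log2 change of 0.26. Idi1, the isomerase before farnesyl diphosphate, differed between its probe sets: the brighter was not called (log2 change 0.24) and the dimmer rose 1.81-fold (means 1967 and 3498, adjusted p = 0.00838), under all scalings. The summed signal of the list was 76397 to 80993 on the BSN arrays, 121193 to 144248 on the PTN arrays and 98785 to 119872 on the HRG arrays, so the groups did not overlap and PTN was the highest.

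Genes that control sterol levels moved in both directions. Of 14 tested, 3 rose and 2 fell, all under every scaling. Beside Insig1, Vldlr, a lipoprotein receptor, rose 1.92-fold (2 of its 3 probe sets were called), and Mylip, the ligase that degrades lipoprotein receptors, rose 1.84-fold. Scap, which carries SREBP to the Golgi, fell 1.66-fold from 3403, 3426 and 3819 to 2514, 1943 and 1958.5, and Npc2, a lysosomal cholesterol carrier, fell by 0.58 on the log2 scale, a call lost without BSN replicate 3. The transcription factors Srebf1 and Srebf2 had log2 changes of 0.07 and 0.03 and were not called.

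Fatty acid synthesis was split. Of 17 genes tested 6 rose and 3 fell, and 5 and 3 held under all scalings. Scd2, a desaturase that makes monounsaturated fatty acids, rose 2.05-fold from 21919.9, 26008 and 22668 to 49073, 44797 and 50670.2 (adjusted p = 0.000147), with 2 much dimmer probe sets not called. The elongase Elovl5 rose 1.83-fold and the citrate lyase Acly 1.45-fold. Scd, a related desaturase, was dim in BSN with a mean of 482, and reached 1551 in PTN. It passed the filter on low signals only through its PTN arrays, so its place among the 6 rises rests on that selection. Fasn, fatty acid synthase, had mean signals of 11509 and 14861 and was not called (adjusted p = 0.0569). Slc25a1, the mitochondrial citrate exporter, fell 2.07-fold, and Me1, malic enzyme, fell 2.02-fold. Of 24 genes of fatty acid oxidation 6 fell, all under every scaling, 1 rose (Etfa, 1.37-fold, not under every scaling) and 17 were not called, with a median of −0.153. Cpt1a, the carnitine transferase that admits fatty acids to mitochondria, fell 1.77-fold on the brighter of its 2 probe sets and was not called on the other, and Angptl4, a secreted lipase inhibitor, fell from a mean of 1196 to 330, below the 40th percentile of the PTN arrays.

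Many genes of cell division rose. Of 46 tested mitosis genes 19 rose and 1 fell, with a median log2 change of 0.379, and 15 rises held under all scalings while the fall, of Mybl2, did not. Top2a, the topoisomerase of dividing cells, had signals of 7765, 9295 and 8383 in BSN and 17458.5, 15962 and 17447 in PTN, a 2.00-fold rise (adjusted p = 0.000661). Dlgap5, a spindle protein, rose 2.07-fold from 3131.5, 3959.6 and 3319.8 to 7332, 6698 and 7459. Kif15, a spindle motor, rose 1.82-fold and Spc25, a kinetochore protein, 1.81-fold. The best known markers of the list did not pass: Mki67 had means of 11098 and 13429 (adjusted p = 0.33) and Cdk1 means of 6881 and 8075 (adjusted p = 0.251). Without BSN replicate 3 the count of rises fell to 11.

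Of 36 DNA replication genes 11 rose and none fell in limma's test, with 15 higher and 1 lower at an unadjusted p under 0.05, a median log2 change of 0.263, and 9 rises under all scalings. Gins1, part of the replicative helicase complex, rose 2.92-fold from 1125, 1236 and 1163 to 4272, 3412 and 2825 (adjusted p = 0.000103). Dut, which keeps uracil out of DNA, rose 2.24-fold from 12121, 11511 and 11632.5 to 22576, 24389 and 33175, and Ung, which removes uracil from DNA, rose 2.07-fold. Pcna, the sliding clamp, was bright in both groups, with means of 33146 and 34424, and was not called. The count of rises was 5 without BSN replicate 3 and 7 without PTN replicate 3.

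Cell cycle control at G1 was mixed, with 4 of 18 genes higher and 2 lower, 4 and 1 under all scalings. Mycn, a proto-oncogene transcription factor expressed in the branching bud, rose 2.20-fold from 3146, 2792 and 3423 to 6002, 7216 and 7487 (adjusted p = 0.00087). Cdkn1a, the inhibitor p21, fell 2.37-fold from 7367, 6781 and 7403 to 2839, 3336 and 2918 (adjusted p = 6.24e-05), while Cdkn1b, the inhibitor p27, rose 1.39-fold. Rb1, the retinoblastoma protein gene, rose 2.01-fold. Ccnd2 fell 1.84-fold as deposited, a call lost with median centring. Ccnd1, the cyclin of ERK signalling, had means of 6383 and 7791 on its brightest probe set (adjusted p = 0.136), while of its other 2 probe sets 1 fell 1.70-fold (means 3377 and 2013, adjusted p = 0.00841), under all scalings, and 1 was not called. Cdkn1c, the inhibitor p57, had means of 12794 and 18422 (adjusted p = 0.134). Without BSN replicate 2, BSN replicate 3 or PTN replicate 2 the rises of this list were 2 each.

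Gnl3, nucleostemin, a nucleolar GTPase of proliferating cells, rose 2.64-fold from 8088, 7151 and 8054 to 21813, 18204 and 21684 (adjusted p = 6.61e-05). In the ribosome biogenesis list that holds it, 4 of 32 rose and 3 fell, 2 and 1 under all scalings (2 rises without BSN replicate 3 or PTN replicate 3). Of 22 histone and chromatin genes 6 rose and none fell (limma; 8 higher and 0 lower at an unadjusted p under 0.05), 3 under all scalings. The methyltransferase Ezh2 rose 1.80-fold, and without BSN replicate 3 the list had 3 rises. Of 52 splicing genes 16 rose and 2 fell, a count that scaling changes: 9 rose under all scalings, 27 with median centring, 8 without BSN replicate 3 and 10 without PTN replicate 3. Hnrnpu, an RNA-binding protein, rose 1.74-fold on its brightest probe set and was not called on the other 2, and the splicing factor U2af2 fell 1.91-fold. These genes are bright, and bright probe sets as a whole leaned upward in PTN. Ribosomal proteins split evenly, with 5 of 41 higher and 5 lower (5 and 4 under all scalings), and so did the respiratory chain, with 5 of 77 in each direction (5 and 2 under all scalings), and without PTN replicate 1 their falls numbered 9 and 10.

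Glycolysis and hypoxia genes gave 6 rises and no fall among 33 (limma; 10 higher and 2 lower at an unadjusted p under 0.05), 4 under all scalings and 10 with median centring. Ldha, lactate dehydrogenase, rose 1.98-fold from 12700.3, 16132.5 and 13994 to 36254, 26941 and 22939, and P4ha1, a collagen prolyl hydroxylase induced by hypoxia, rose 2.62-fold from 1526, 1529 and 1805 to 5593, 4127 and 3352.5.

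Genes of the differentiated collecting duct moved in both directions. Aqp2, the vasopressin-regulated water channel, was at 157.5, 108 and 151 in BSN, far below the 40th percentile of those arrays. In PTN it was at 1685, 720.1 and 2189. The HRG arrays were below their 40th percentiles too, so Aqp2 passed the filter on low signals only through its PTN arrays. Its place among the rises rests on that selection, and no p is given for it. Aqp3, the water channel of the opposite cell face, rose from a dim mean of 524 to 1348. The HRG mean was 183 for Aqp2 and 9668 for Aqp3, so the order of the media differed between these water channels. Prom1, prominin, rose 1.99-fold. Atp1b1, a sodium pump subunit, rose 2.04-fold on its brightest probe set. Its second probe set fell 1.55-fold (means 8369 and 5420, adjusted p = 0.00556), under all scalings, so its direction is not settled. Hsd11b2, which shields the mineralocorticoid receptor from cortisol-like steroids in the duct, fell 2.78-fold from 4156.5, 3657 and 5865 to 1979, 1357 and 1509 (adjusted p = 0.000374). In all, 4 of 16 trunk and collecting duct genes were called higher, Aqp2 and Atp1b1 among them, all under every scaling. The median log2 change of the list was −0.193, and that of all genes was −0.113. Of the 3 that fell, Hsd11b2 held under every scaling. The falls of Sgk1 and Nr3c2, the mineralocorticoid receptor itself, were 1.43-fold and 1.39-fold and did not hold, and without BSN replicate 3 the list had 1 fall. Among transporters, the sodium potassium chloride carrier Slc12a2 rose 2.02-fold and the potassium channel Kcnj15 2.94-fold, while a dimmer Kcnj15 probe set was not called.

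**Figure D3:**
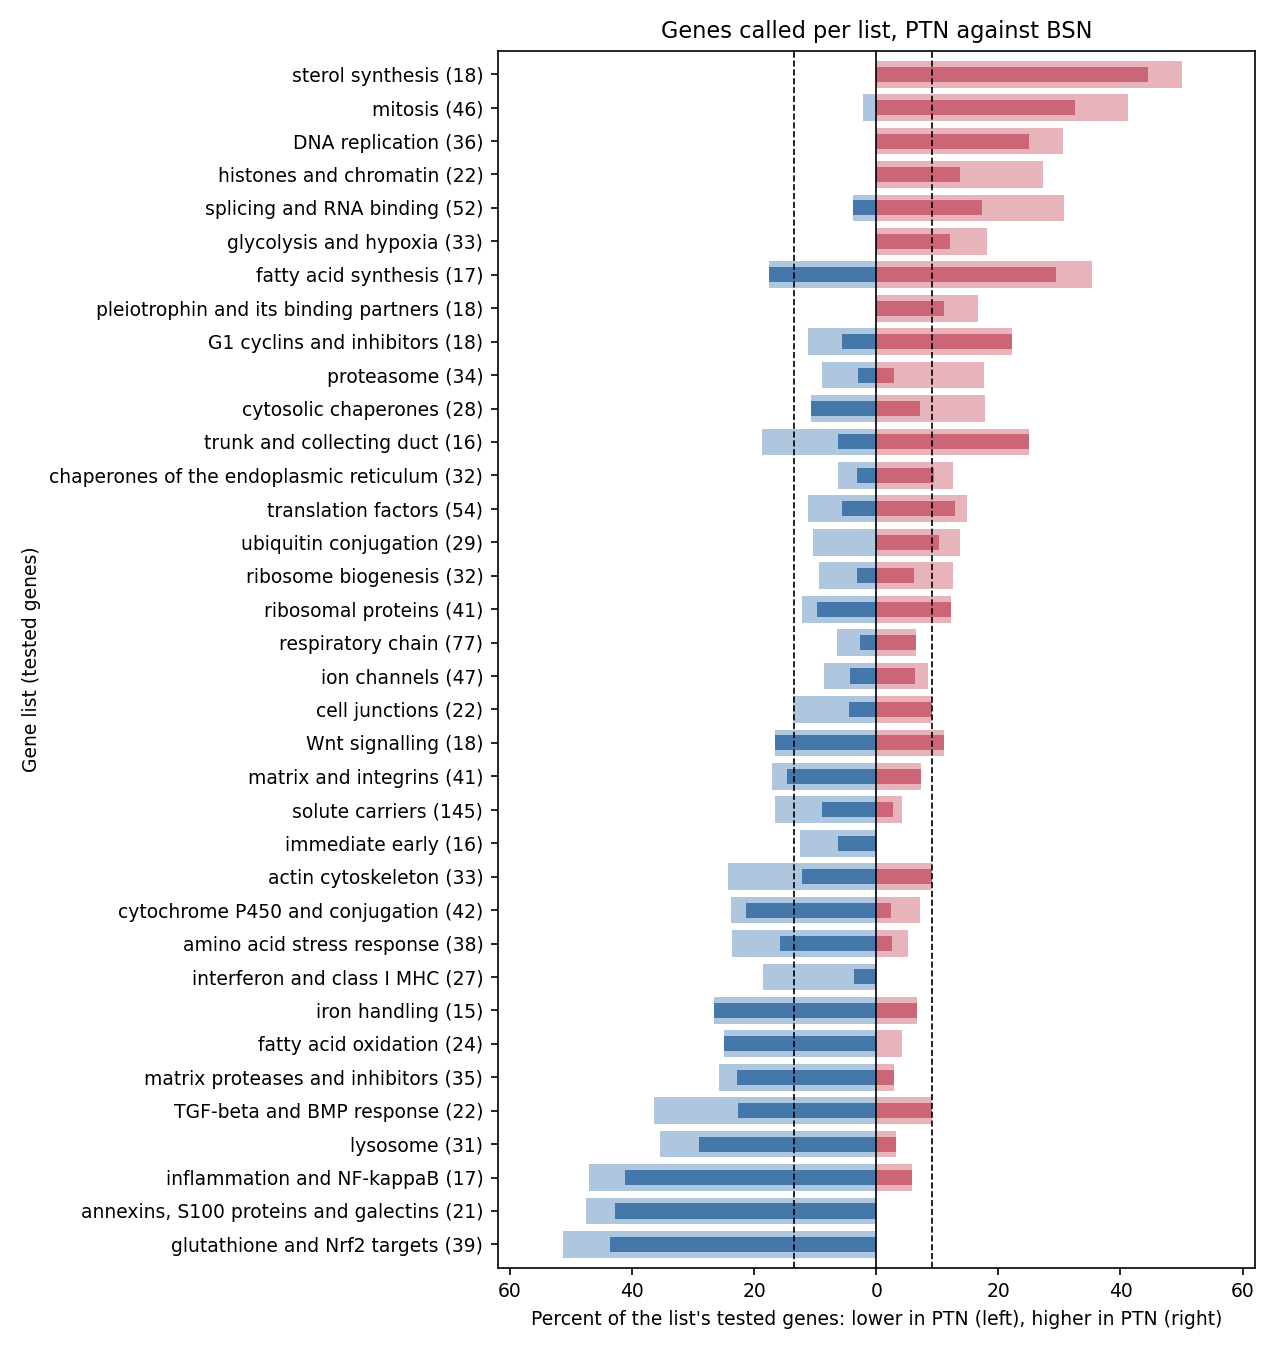
Share of each gene list called in PTN against BSN (x axis, percent of tested genes, lower to the left and higher to the right) for lists with at least 15 tested genes (y axis, number in parentheses). Pale bars are calls on the deposited scale and dark bars are calls that held under all 4 other scalings. Dashed lines mark all genes on the deposited scale (9.08% higher, 13.5% lower), a reference for the pale bars only. Under all scalings 693 probe sets were higher and 789 lower, of 10106. Sterol synthesis (9 of 18), mitosis (19 of 46) and fatty acid synthesis (6 of 17) extend farthest to the right, and glutathione and Nrf2 targets (20 of 39) farthest to the left.

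The next lists are those with genes lower in PTN than in BSN. Among lists with at least 15 tested genes, that of glutathione enzymes and targets of Nrf2 had the largest share of falls. Nrf2 is the transcription factor of the response to oxidants and electrophiles. Of 39 tested genes 20 fell and none rose, in limma's test, with 26 lower and 0 higher at an unadjusted p under 0.05. The median log2 change was −0.455, and 17 falls held under all scalings. Gstp1, a glutathione transferase, had signals of 14440.5, 14719 and 17157 in BSN and 2791, 4294 and 4444 in PTN, a 4.08-fold fall (adjusted p = 1.85e-05). Nqo1, a quinone reductase, fell 2.79-fold from 25122, 35742.5 and 32124.5 to 8774, 11786 and 12781.5 (adjusted p = 0.000103). Gsta4, a transferase that clears lipid aldehydes, fell 3.23-fold from 15188, 19901 and 20361 to 6532, 5158 and 5372. Each of these genes had every PTN array below every BSN array.

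Several members ended near background in PTN. Akr1b8, an aldose reductase family member, had 1410.5, 2743 and 1879.7 in BSN and 103, 117 and 149 in PTN (adjusted p = 4.83e-06), and its related family member Akr1b1 fell 2.06-fold. Hmox1, heme oxygenase, fell 1.92-fold, and Srxn1, sulfiredoxin, went from a mean of 1318 to 418 with PTN arrays at 911, 165 and 177. The alpha class transferases Gsta1 and Gsta3 fell too, with log2 changes of −1.60 and −1.13, and since these genes are near copies their probes may share signal. Nfe2l2, which encodes Nrf2, had means of 27526 and 24514 and its inhibitor Keap1 3492 and 2728, and neither was called. On the HRG arrays the means were 7618 for Gstp1, 26660.0 for Nqo1 and 14696 for Gsta4, so 2 of these 3 genes lay near BSN and Gstp1 lay between.

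Iron handling moved in opposite directions within 1 list. Against the rise of Tfrc, Slc40a1, ferroportin, the iron exporter, fell 2.18-fold from 4713, 4459 and 4482 to 1943, 1967 and 2340.1 (adjusted p = 0.000162). Cybrd1, an iron reductase, fell 1.81-fold and Alad, an enzyme of heme synthesis, 1.53-fold, and with Hmox1 these made 4 falls and 1 rise among 15 genes, all under every scaling.

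Of 4 keratins of simple epithelia 3 fell, 2 under all scalings. Krt7, a keratin of simple ducts and of collecting ducts, fell 5.06-fold from 11229, 12252 and 13299.7 in BSN to 3545, 1926 and 2031 in PTN (log2 change −2.34, SE 0.20, adjusted p = 1.59e-05), and the HRG arrays were at 11109, 10299 and 9382. Krt18 fell 1.80-fold from 27486, 28643 and 29784 to 21372, 14439 and 13069.7 (adjusted p = 0.00311). Its partner Krt8 fell 1.33-fold (adjusted p = 0.0453), a call lost with median centring and without any of 5 of the 6 arrays left out in turn. Krt19 had means of 2925 and 2181 and was not called (adjusted p = 0.0827). For both Krt7 and Krt18 replicate 1 was the highest PTN array and still below BSN.

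Annexins, S100 proteins and galectins, calcium-binding and glycan-binding proteins that are abundant in many epithelia, gave 10 falls and no rise among 21 tested in limma's test (12 lower and 0 higher at an unadjusted p under 0.05), 9 under all scalings, with a median log2 change of −0.514. Anxa2 fell 2.58-fold from 25479.7, 21049.6 and 22729 to 7688, 8856 and 10336.5 (adjusted p = 7.8e-05), and Anxa5 fell 2.50-fold from 20925, 20317.5 and 20652 to 5829.9, 9783 and 9814. Lgals3, galectin 3, fell 2.39-fold, and S100a11 fell 2.04-fold. Anxa2 and Lgals3 were highest on the HRG arrays, with means of 33104 and 11686, so PTN had the lowest level of the 3 media for both. The actin cytoskeleton list had 8 falls and 3 rises among 33 genes, but 4 falls under all scalings, and 4 or 5 without any one of the BSN arrays. The 3' signal of the actin control was 18660.0 to 27020.0 on the BSN arrays and 6508 to 10870.0 on the PTN arrays.

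Of 17 genes of inflammatory signalling 8 fell and 1 rose, with a median log2 change of −0.67, 7 of the falls under all scalings. Ccl20, a chemokine, fell 2.69-fold from 3744, 3325 and 3973 to 1184, 1546 and 1360.5 (adjusted p = 0.00037). Stat3, the transcription factor of interleukin 6 signalling, fell 2.33-fold from 4673, 5133.5 and 6111 to 2191, 2266 and 2294. Birc3, an NF-kappaB target that blocks cell death, fell 2.15-fold and Tnfrsf12a, a receptor of the TNF family, 2.10-fold. Icam1 and Nfkbia, targets of NF-kappaB, had means of 1251 and 809 in BSN and 208 and 198 in PTN, which is below the 40th percentile of the PTN arrays. Cxcl12, the chemokine that binds Cxcr4, was the single rise, 2.28-fold from 939.6, 657 and 849 to 2091, 1585 and 1948. With the filter set at the 60th percentile, 5 falls were counted because fewer members were tested. The interferon and class I MHC list had 5 falls among 27, of which that of B2m, the light chain of class I MHC, held under all scalings (2.62-fold, from a mean of 4527 to 1741). A second B2m probe set fell as well. The falls of this list ranged from 1 (without BSN replicate 3, PTN replicate 2 or PTN replicate 3) to 9 (without PTN replicate 1), with 2 without BSN replicate 1.

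Among genes of TGF-beta and BMP signalling, 8 of 22 fell and 2 rose, with 5 falls under all scalings. Id1, a direct BMP target that blocks differentiation factors, fell 3.55-fold from 4856, 4547 and 5181 to 1668, 1051 and 1421 (adjusted p = 1.94e-05). Bmpr2, a BMP receptor, fell 3.40-fold from 5595, 6818 and 6081.5 to 2763, 1542 and 1362, and Fst, follistatin, an inhibitor of activins, fell 3.03-fold. Smad1, which relays BMP signals, rose 1.63-fold on the brighter of its 2 probe sets and was not called on the other. The falls numbered 5 without BSN replicate 2 and 4 without BSN replicate 3. In the Wnt list, with 2 rises and 3 falls among 18 genes, all under every scaling, Lgr5, a receptor of R-spondins, rose 2.45-fold from 1177.5, 949 and 691.5 to 3497.5, 2119.6 and 1588, and Tcf7, a nuclear effector, fell 2.37-fold from 5503, 5347 and 4934 to 2405, 2432 and 1845.

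Of 35 matrix proteases and their inhibitors 9 fell, 1 rose and 25 were not called, with 8 falls and the rise under all scalings. Mmp2, a gelatinase that degrades basement membrane, fell 3.70-fold from 15149, 18747 and 19099.9 to 5320.4, 4634 and 4329 (adjusted p = 1.59e-05). A dimmer Mmp2 probe set was not called, with means of 1431 and 1101. Timp3, an inhibitor of metalloproteases, fell 2.42-fold on 1 probe set and was not called on another (means 1745 and 1328), and Htra3, a secreted serine protease, fell 5.67-fold from 3283, 3722 and 4239 to 715, 713 and 525. A dimmer Htra3 probe set was not called (means 992 and 1033). Falls in this list numbered 15 without PTN replicate 1, and 3 with the filter at the 60th percentile, where fewer members were tested. In the matrix list Col9a1, a chain of type 9 collagen, rose 2.45-fold from 8511, 9097 and 9076 to 22412, 22285 and 20676 (adjusted p = 7.04e-05), and the HRG mean was 1812.5. Col5a2, a chain of type 5 collagen, fell 2.27-fold. The matrix list as a whole had 3 rises and 7 falls among 41 genes, 3 and 6 under all scalings, with 1 rise without BSN replicate 1 and 4 falls without BSN replicate 3 or PTN replicate 3.

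The lysosome list had 11 falls and 1 rise among 31 genes, 9 and 1 under all scalings. Ctsa, a lysosomal carboxypeptidase, fell 2.23-fold from 6133, 6281 and 5552 to 3021, 2260.1 and 2806, and Hexa, a hexosaminidase, fell 1.91-fold. Lamp2, a membrane protein of lysosomes, fell 1.72-fold from a mean of 18147 to 10520.0, but another bright Lamp2 probe set was not called (means 13521 and 11901, adjusted p = 0.327). Laptm4a, a lysosomal membrane protein, rose 2.14-fold.

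Genes of the amino acid stress response, which ATF4 induces when amino acids run short, gave 9 falls and 2 rises among 38, 6 and 1 under all scalings. Chac1, which degrades glutathione, fell 4.31-fold from 4489, 4140.3 and 5185.5 to 1206, 1168 and 823 (adjusted p = 1.09e-05). Asns, asparagine synthetase, fell 3.64-fold from 5917, 7669 and 7826 to 2316, 1876 and 1666 (adjusted p = 1.59e-05). Slc7a3, a carrier of cationic amino acids, fell 2.58-fold. Atf4 had means of 7948 and 7302 and was not called. The HRG means were 4638 for Chac1 and 6799 for Asns, both near BSN. The count of falls was 5 without BSN replicate 2 and 5 without PTN replicate 2. Bcat1, which breaks down branched-chain amino acids, fell 5.48-fold from 6083, 8789 and 5824.5 to 966.5, 1309 and 1451, though a dimmer Bcat1 probe set was not called.

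H19, the imprinted long RNA of embryonic tissues, fell 5.71-fold from 33558, 33997 and 39086 to 5563, 8178 and 5232 (adjusted p = 5.26e-06). Igf2, its neighbour in the same imprinted domain and a fetal growth factor, fell 2.19-fold from 8793, 5892.5 and 6516 to 2518, 3946 and 3192 (adjusted p = 0.00134). Both were highest on the HRG arrays, with means of 56863 for H19 and 12036 for Igf2. Igf2r, the receptor that clears Igf2, fell 2.00-fold on its brightest probe set, but another of its probe sets rose (mean signals 3953 and 6910.2), so its direction is not settled. Plpp3, a lipid phosphatase, fell 4.13-fold on 1 probe set and was not called on another bright one (means 14457 and 9530.0, adjusted p = 0.103). Tmbim1 and Cntnap2 each fell 3.71-fold.

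**Figure D4:**
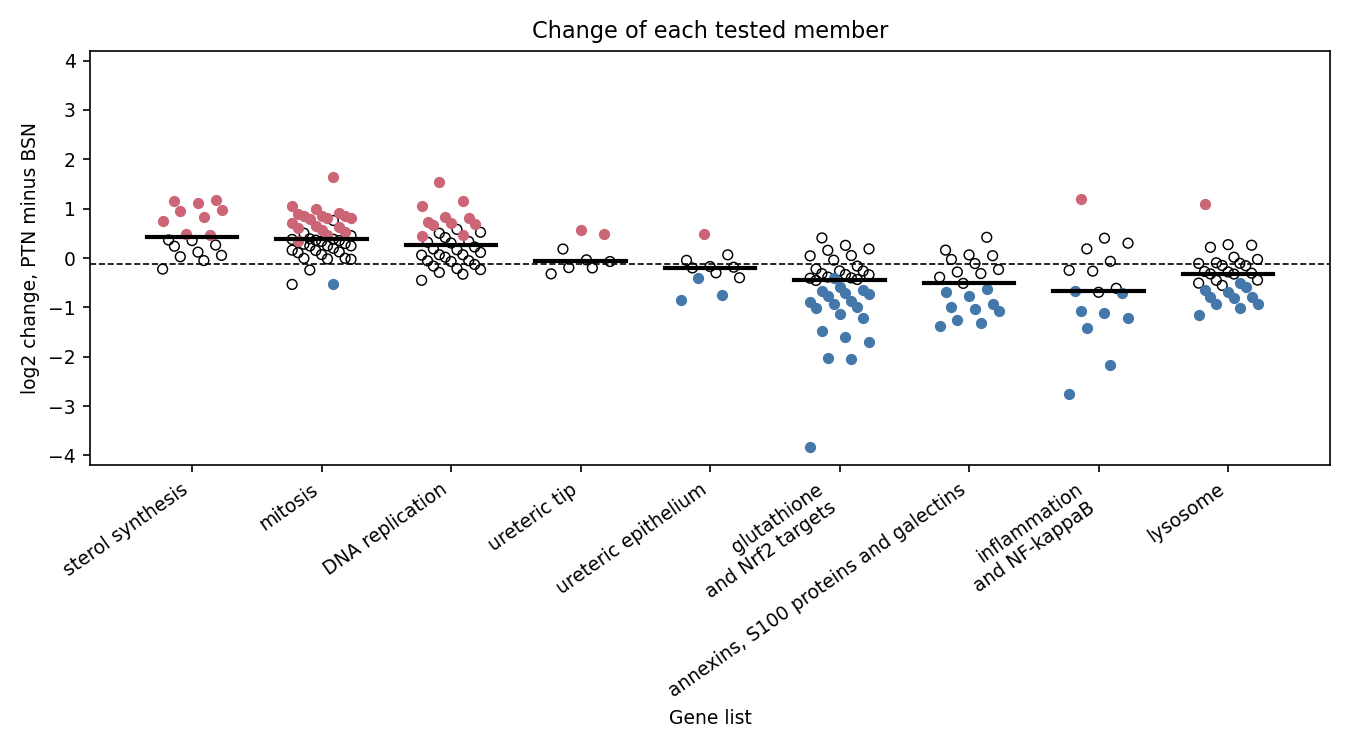
log2 change from BSN to PTN (y axis) of every tested member of 9 gene lists (x axis). Filled red points were called higher, filled blue points called lower and open points not called, short bars are list medians and the dashed line is the median of all 7458 genes (−0.113). The medians of sterol synthesis (0.42), mitosis (0.379) and DNA replication (0.263) lie above the line and those of the glutathione (−0.455), annexin (−0.514), inflammation (−0.67) and lysosome (−0.325) lists below it, with single members of several lists on the other side.

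Of 8 tested genes that mark the branching tip, Ret and Cxcr4 were called higher and none lower, and neither call held under all scalings. Ret had 11483, 15204 and 13848 in BSN and 19681, 18578 and 18009.6 in PTN, 1.40-fold higher (log2 change 0.48, SE 0.16, adjusted p = 0.0424). The groups did not overlap, but the call was lost with 3 of the 4 other scalings and without 5 of the 6 arrays in turn, and a dimmer Ret probe set was not called (means 2217 and 2269). Cxcr4, the chemokine receptor of the tip, was 1.48-fold higher, from 8147, 8513 and 8019 to 14136, 9821 and 12954 (adjusted p = 0.0207), a call lost with quantile normalization and without BSN replicate 1, BSN replicate 3 or PTN replicate 3, and its 2 dimmer probe sets were not called. Gfra1 overlapped, with 5326, 6167 and 6256.5 in BSN and 6438, 5528 and 5348 in PTN (log2 change −0.04, SE 0.15, adjusted p = 0.885). Spry1, a feedback inhibitor of FGF signalling, had a log2 change of 0.18 (SE 0.13) and was not called. Dusp6, a phosphatase induced by ERK that switches it off, was not called on its brightest probe set (log2 change −0.07, SE 0.14), but its second fell 1.73-fold (means 14761 and 8549, adjusted p = 0.00505), under all scalings, so its direction is not settled. In the FGF and ERK list of 8 genes, Mycn and Fgfr2 rose and none fell (limma; 3 higher and 1 lower at an unadjusted p under 0.05), and the 1.35-fold rise of Fgfr2 was lost under 3 of the 4 other scalings and not seen on a dim second probe set (means 980.3 and 1032.5).

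Transcripts of pleiotrophin itself did not separate the groups. Ptn had 4719, 4094 and 2827 in BSN and 3814, 4387 and 3939.6 in PTN (log2 change 0.09, SE 0.23, adjusted p = 0.809), and Mdk, midkine, had 19158, 16593 and 21275 in BSN and 19172.5, 14882 and 16460.0 in PTN (adjusted p = 0.411). Both were lower on the HRG arrays, at means of 1032 and 4271. Of the 18 tested genes for pleiotrophin, midkine and their binding partners 3 rose and none fell (limma; 5 higher and 1 lower at an unadjusted p under 0.05), 2 under all scalings. Sdc4, a heparan sulfate proteoglycan, rose 1.96-fold from 15352.5, 19567 and 15727 to 38317, 26663 and 35094 (adjusted p = 0.00089), and it was the one rise of the list in each fit that left out BSN replicate 1, 2 or 3, or PTN replicate 2 or 3. The glypicans Gpc2 and Gpc6 were called at 1.36-fold and 1.27-fold. Ptprz1 had means of 2193.5 and 1699 (adjusted p = 0.123) and Ncl, nucleolin, 33563 and 28382 (adjusted p = 0.196). Of 14 tested genes of enzymes that build or modify heparan sulfate, Ext1 and Ext2, the chain polymerases, fell 1.69-fold and 1.63-fold. The sulfatase Sulf2 rose 1.44-fold. All 3 calls held under all scalings, and 4 genes of the list fell without PTN replicate 1.

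The samples carried ureteric epithelium in both media. Epcam, an epithelial adhesion protein, was at 62357, 61848 and 65789 in BSN and 58695, 52553 and 55838 in PTN, and Cdh1, E-cadherin, had means of 11468 and 12040.0. Neither was called, nor was the bud transcription factor Emx2 with means of 14153 and 12940.0. The ureteric epithelium list had 3 falls (Krt18, Cdh16 and Krt8) and 1 rise (Ret) among 11 genes, and 5 falls without PTN replicate 1. Its sum was 163820 to 175264 on the BSN arrays and 136575 to 160706 on the PTN arrays.

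Markers of other cell types were few and mostly dim. In the mesenchyme and stroma list 8 of 20 genes passed the filter on low signals, 1 fell and none rose (limma; 3 lower and 0 higher at an unadjusted p under 0.05), and its sum was 13495 to 14757 on the BSN arrays and 8078 to 9509 on the PTN arrays. The fall was that of Cdh11, a cadherin of mesenchyme, 2.56-fold from 8017, 7742 and 6878 to 2346, 3561 and 3012 (adjusted p = 0.000219). Col1a1 and Col1a2, the chains of type 1 collagen, had means of 750.4 and 804 in BSN and 885 and 797 in PTN and were not called. Blood and macrophage markers had no call among 8 in limma's test, with 1 at an unadjusted p under 0.05, and sums of 7954 to 9513 and 5697 to 8599. Endothelial, nephron and neuron lists had 1 fall of 3, 1 of 6 and 2 of 7, and none of these held under all scalings. In bulk samples fewer cells of a type and less RNA per cell cannot be told apart, and the part of other cell types in the changes above was not tested.

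Promoters were read for lists whose members moved together, from RefSeq promoter windows of rat build GRCr8 (250 bases before to 50 after the start of the gene). A motif counted on either strand. A gene held a motif if any of its promoters did, whereas the share of all promoters counts each promoter by itself. The share of all promoters is therefore not a like reference for the counts of genes. The amino acid response core TGATGCAA was present in 0.795% of the 33469 promoters in that table. Of the 9 amino acid stress genes that fell, 7 had a promoter there and 4 of them held it (Chac1, Iars1, Mars1 and Nupr1). Of the 23 members not called that had a promoter there, 5 held it. The antioxidant core TGACNNNGC was in 12.1% of all promoters. Among Nrf2 list genes with a promoter there, 5 of 18 that fell held it, Gstp1 among them, and 8 of 18 not called. The E2F core, TTTGGCGC or TTTCCCGC, was in 1.45% of all promoters. Among replication genes with a promoter there, 4 of 11 that rose held it, Gins1 among them, and 6 of 22 not called. A sterol response core of TCACCCCA was in 1.37% of all promoters. None of the 8 sterol synthesis genes that rose and had a promoter there held it, which says only that these letters are not in those windows. The CCAAT box together with the letters TTTGAA was in 7.41% of all promoters. Among mitosis genes with a promoter there, 7 of 16 that rose held both, and 13 of 23 not called. These shares are descriptions with no test.
The 250 bases before the start of 4 of these genes show where the letters sit, with the motif in capitals, each 5′ to 3′ on the strand of the gene:
Chac1, plus strand, chr3:126795881-126796130: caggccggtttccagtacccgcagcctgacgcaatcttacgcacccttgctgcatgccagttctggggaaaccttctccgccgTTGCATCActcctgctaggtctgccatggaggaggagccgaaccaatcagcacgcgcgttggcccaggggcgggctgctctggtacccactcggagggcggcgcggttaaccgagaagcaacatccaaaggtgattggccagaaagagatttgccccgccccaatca
Nupr1, minus strand, chr1:190645902-190646151: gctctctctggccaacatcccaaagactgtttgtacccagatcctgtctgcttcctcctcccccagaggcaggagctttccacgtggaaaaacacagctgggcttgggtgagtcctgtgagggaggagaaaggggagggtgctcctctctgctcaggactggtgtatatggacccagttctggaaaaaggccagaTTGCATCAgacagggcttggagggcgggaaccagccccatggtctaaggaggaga
Gstp1, minus strand, chr1:210769706-210769955: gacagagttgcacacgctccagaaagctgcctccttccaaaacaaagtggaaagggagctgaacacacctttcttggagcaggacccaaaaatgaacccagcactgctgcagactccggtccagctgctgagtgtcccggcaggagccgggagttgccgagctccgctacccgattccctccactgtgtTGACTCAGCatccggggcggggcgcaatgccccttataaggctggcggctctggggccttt
Gins1, plus strand, chr3:160184670-160184919: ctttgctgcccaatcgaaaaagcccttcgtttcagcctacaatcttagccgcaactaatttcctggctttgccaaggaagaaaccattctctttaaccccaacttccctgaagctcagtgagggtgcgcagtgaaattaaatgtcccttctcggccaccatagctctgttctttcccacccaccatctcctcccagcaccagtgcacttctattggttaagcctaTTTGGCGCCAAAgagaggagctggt
In Chac1 and Nupr1 the motif reads on the opposite strand and begins 167 and 55 bases before the start, in Gstp1 it begins 61 bases before, and in Gins1 overlapping forward and reverse copies begin 25 and 21 bases before. Nupr1, a small stress protein, was dim, with means of 723 in BSN and 391 in PTN, and its call was lost with quantile normalization and cyclic loess.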

How the data were processed

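RNA from ureteric buds was measured on 9 rat Affymetrix RAE230A arrays, 3 a group. The deposited values are probe set intensities that the authors made with GCOS, per the submitters' processing notes, with its version and settings not given in the sources used here. Means trimmed by 2% at each end were nearly equal on all arrays, as in scaling to a common target. Here log2(intensity + 16) of all 9 arrays was fitted with limma 3.58.1 (lmFit, contrasts.fit, eBayes with an intensity trend, R 4.3.3) and the contrast PTN minus BSN taken. Probe sets above their array's 40th percentile on at least 3 arrays were kept (10106, of which 8415 had 1 gene symbol, for 7458 genes), and p-values were adjusted by Benjamini-Hochberg over all of them, with a threshold of 0.05. Every adjusted p and SE in the text is limma's. In lists a gene is its brightest kept probe set. Where a group's mean was below the mean 40th percentile of its arrays (750.0 for BSN, 632.2 for PTN), signals are given without a fold. A probe set high in 1 group alone could pass the filter through that group, so its call is not independent of the filter. Gene names came from GEO's platform annotation, updated to RefSeq symbols.

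The members and gene lists were chosen with earlier results of these data known. Named genes were the 15 largest rises and 15 largest falls that met the threshold without overlap of arrays, up to 4 highest and 4 lowest called members of each list with the 2 brightest not called, and a fixed set of marker genes. Further members named after their values were seen are Acat2, Acly, Atf4, Cdk1, Col1a1, Col1a2, Cyp51, Emx2, Fdft1, Gsta1, Gsta3, Icam1, Keap1, Lss, Mars1, Mki67, Mvd, Mvk, Nfkbia, Nsdhl, Nupr1, Ptprz1, Sc5d, Srebf1, Srebf2 and Srxn1. The number of arrays limits the precision, and p-values measure the spread between these samples. The fit was tested on simulated data. Alternatives were 4 other scalings, pseudocounts of 1 and 64, other filters, no trend, array weights, 6 arrays alone, a replicate block and each array left out.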

Additional observations from a re-analysis of the deposited data

How the results depend on the processing

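The counts of probe sets higher (925) and lower (1351) in PTN and their median change (−0.114) were recomputed under each alternative, and no named gene that was called reversed its direction. The median was −0.005 after quantile normalization, 0.014 after median centring, −0.174 after centring on the brightest probe sets, −0.003 after cyclic loess, −0.158 without the filter and −0.041 with the filter at the 60th percentile. Lower calls numbered 884 with median centring, 2169 with array weights and 789 under all scalings, the last chosen after seeing the data. A threshold of 0.01 left 431 higher and 635 lower, and a change of at least 2-fold left 127 and 300. Leaving out each array in turn gave 542 to 1214 higher and 816 to 2008 lower, with the lowest counts without BSN replicate 3 and the highest without PTN replicate 1. Of the named genes that were called, 171 were called under every alternative and 200 under all 4 other scalings. With the replicate block the counts were 969 and 1393. Deviations of same-numbered PTN and BSN arrays correlated at −0.097, −0.011 and −0.064, and those of differently numbered arrays at −0.167 to 0.191. No pairing by number was seen, but 3 arrays a group are too few to exclude one. Dim probe sets give weak limits, since a signal near background has no reliable fold.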
